A study of Homo sapiens with 12 samples.

Results

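2 single substitutions of tau were set against each other: Tau-K174Q, in which a lysine is replaced by glutamine, and Tau-S199E, in which a serine is replaced by glutamate. The comparison used the 3 Tau-K174Q libraries (numbered 4, 5 and 6 in the deposited table) and the 3 Tau-S199E libraries (10, 11 and 12), which are 6 of the 12 libraries of the series, over all 1676 genes of the table. The other libraries were Tau-WT (1, 2 and 3), the reference of the study, and the double substitution Tau-K174Q-S199E (16, 17 and 18). All 12 were made from SH-SY5Y cells, a human neuroblastoma line from 1 bone metastasis, 24 h after transfection with the construct, from 400 ng of RNA each. Every group therefore carries a transfected tau, and no untransfected or empty-vector library is among the 12. The promoter of the constructs, their tau isoform and the share of cells that took them up are not given in the labels. In such bulk samples, fewer responding cells and a smaller response per cell cannot be told apart.

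Tau, the product of MAPT, binds microtubules along axons and is also found in the nucleus. In Alzheimer disease and other tauopathies it is heavily phosphorylated and acetylated, and it aggregates. Glutamine lacks the charge of lysine and is used to mimic acetyl-lysine, and glutamate carries a negative charge and is used to mimic phosphoserine. The study's title names the deacetylase SIRT6, the acetyltransferase CBP, nuclear tau and protein synthesis.

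The reference sequence around both positions is shown because the groups compared differ at these codons. It is the coding strand of the 441-residue form of tau (GENCODE 29, GRCh38, plus strand of chromosome 17), codons 168 to 205, with the substituted codons in capitals.
MAPT codons 168 to 205: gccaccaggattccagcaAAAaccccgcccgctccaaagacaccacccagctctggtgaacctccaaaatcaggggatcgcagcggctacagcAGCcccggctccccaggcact
The codon of K174Q (AAA, lysine) lies at 45991550 to 45991552 in exon 7 of the 12 exons of this transcript, and that of S199E (AGC, serine) at 45996437 to 45996439 in exon 8. The run is spliced, so its 114 bases are not contiguous in the genome, and the codons are 25 apart. K174Q and S199E are written with the reference residue first, the position counted from the first residue of this form, then the substituted residue.

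The deposited values are row z-scores: each gene was standardised over the 12 libraries to a mean of 0 and an SD of 1, so every value and difference below is in SD units of that gene. Levels, depth and fold sizes are not in such values, and a gene's SD contains the group differences themselves. The genes were selected by the authors, with a deposited adjusted p of at most 0.0499 for a contrast that the file header does not name. The sign of the deposited fold change was that of Tau-WT minus Tau-S199E in 1676 genes, that of the interaction of the substitutions also in 1676, and that of Tau-K174Q minus Tau-S199E in 1416 genes (84.5%). The comparison below was therefore made among genes picked on the same libraries, and its shares describe this table and not the transcriptome. The labels do not state that the replicates are separate cultures, and the p-values then reflect no more than library-to-library spread, which could be technical.

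Library 12 of Tau-S199E stood apart. The SD of its values over the genes was 1.67, against 0.83 and 0.77 in libraries 10 and 11 and 0.70, 0.57 and 0.47 in libraries 4, 5 and 6. It was the most extreme of the 12 libraries in 1293 genes (77.1%), being the highest in 688 and the lowest in 605. Its mean absolute distance from the Tau-WT mean was 2.55, against 1.68 and 1.57 for libraries 10 and 11 and 1.52, 1.33 and 1.11 for libraries 4, 5 and 6. The median SD over replicates was 0.65 in Tau-S199E and 0.34 in Tau-K174Q. Between libraries 10 and 11 alone it was 0.30. Differences of named genes and list medians are given with library 12 and, in most cases, also without it.

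Across the table, the difference between the substitutions seldom exceeded the spread between replicates by the adjusted test. With limma's linear model over all 12 libraries (two-sided, Benjamini-Hochberg adjustment over 1676 genes), 1 gene passed an adjusted p of 0.05 (0.0597% of the genes), and it was lower in Tau-K174Q. Without library 12, 1 gene passed as well (0.0597%), and it was the same gene, INO80B-WBP1. Under limma's moderated variances 0 genes passed (353 with an unadjusted p under 0.05), and with each library divided by its SD over the genes 7 passed, all lower in Tau-K174Q. The second smallest adjusted p was 0.0936, 5 genes were under 0.1, and 37 were under 0.2. Before adjustment, 269 genes (16.1%) had a p under 0.05, 112 of them higher in Tau-K174Q (6.68%) and 157 lower (9.37%). Without library 12 these were 116 genes (6.92%), 33 higher (1.97%) and 83 lower (4.95%), and without library 5 or 6 they were 162 or 118. The 3 Tau-K174Q libraries did not overlap the 3 Tau-S199E libraries in 607 genes (36.2%), 311 of them higher in Tau-K174Q (18.6%) and 296 lower (17.7%). Without library 12, when the range of Tau-S199E is that of 2 libraries, they did not overlap in 732 genes (43.7%), 410 higher (24.5%) and 322 lower (19.2%).

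Differences were of both signs and similar number. The mean was higher in Tau-K174Q in 882 genes (52.6%) and lower in 794 (47.4%), with a median difference of 0.09 and a range from -2.15 to 1.86. Without library 12 it was higher in 962 genes (57.4%) and lower in 714 (42.6%), with a median of 0.15. The median absolute difference was 0.72 with all libraries and 0.49 without library 12, and the median standard error was 0.56 and 0.59. The direction turned in 238 genes (14.2%) when library 12 was left out. Centring each library on its median moved the median difference from 0.09 to 0.30 and the share of higher genes to 59.5%.

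**Figure D1:**
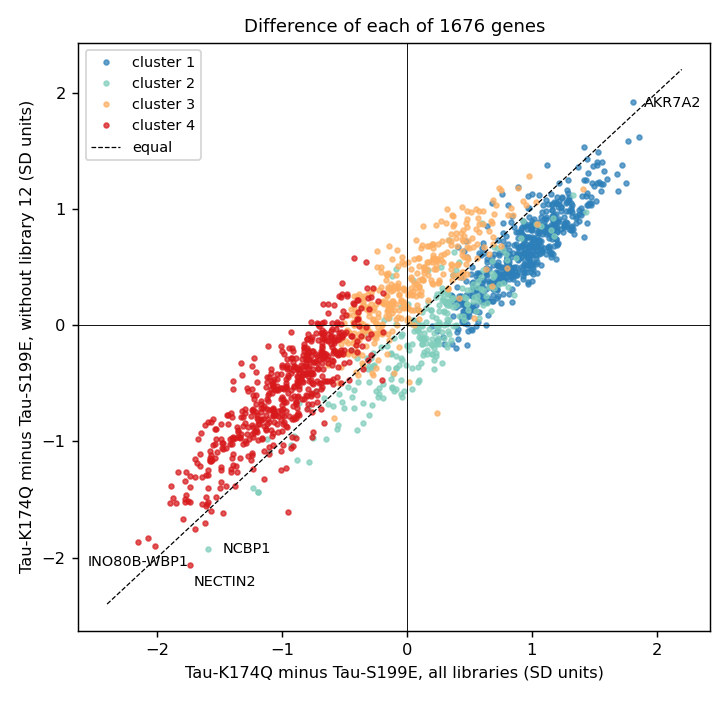
Tau-K174Q minus Tau-S199E for each of 1676 genes (points, coloured by deposited cluster), with all libraries on the x axis and without library 12 on the y axis, both in SD units. Most cluster 1 and cluster 4 genes lie nearer to 0 without library 12, while AKR7A2, NECTIN2 and NCBP1 lie farther from it, and 238 genes change sign.

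The gene that passed, INO80B-WBP1, is a read-through gene whose transcripts join INO80B, a subunit of the INO80 chromatin remodelling complex, to its neighbour WBP1 (chr2:74455088-74460884, plus strand, GRCh38). In Tau-K174Q its values were -0.52, -0.54 and -0.57 (mean -0.54 ± 0.02, SD, n = 3), and in Tau-S199E they were 1.64, 1.02 and 2.16 (1.60 ± 0.57, SD, n = 3). The 9 libraries of the other constructs all lay between -0.69 and -0.41, so Tau-S199E alone was high and Tau-K174Q overlapped Tau-WT (-0.53, -0.44 and -0.41). The difference was -2.15 (SE 0.24, adjusted p = 0.0303), and without library 12 it was -1.87 (SE 0.16, adjusted p = 0.0134). The adjusted p was 0.212, 0.207 or 0.228 without library 4, 5 or 6, and 0.169 without library 10. Under moderated variances it was 0.144. Its SD was 0.02 in Tau-K174Q and 0.06 in Tau-WT, against medians over all genes of 0.34 and 0.47. A gene near the floor of detection in those libraries could give such a narrow band. Levels are not in the values, so this was not tested.

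INO80B itself (chr2:74455023-74457960) shares that locus and had the opposite direction. Its values were 0.28, 0.13 and 0.60 in Tau-K174Q, -1.06, -0.58 and -2.44 in Tau-S199E and -0.17, 0.86 and 0.95 in Tau-WT. Tau-K174Q did not overlap Tau-S199E, with a difference of 1.69 (SE 0.54, adjusted p = 0.26; 1.15 without library 12). In the authors' deposited table the log2 fold change was -7.64 for INO80B-WBP1 and 1.31 for INO80B. How reads of the shared exons were split between the 2 gene models is not given in the sources used here, and its part in these values was not tested. WBP1 was not among the 1676 genes. Its end (74460891) lies next to that of INO80B-WBP1 (74460884), and whether 3′ reads were shared between these 2 was not tested.

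Next in order were genes that did not pass the adjusted threshold, and they are given as values. The genes named were those of smallest p without library 12, 10 in each direction. In all 20 the Tau-K174Q libraries did not overlap the Tau-S199E libraries (all genes: 36.2%, and 43.7% without library 12). Since the genes were picked by p in this same comparison, such separation follows largely from the choice.

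Among those lower in Tau-K174Q were several that act in mitochondria or protein turnover. MRPS34, a protein of the small mitochondrial ribosomal subunit, had values of -0.28, 0.00 and -0.34 in Tau-K174Q against 1.2, 1.51 and 1.51 in Tau-S199E, a difference of -1.61 (SE 0.25, adjusted p = 0.0936; -1.56 without library 12). AURKAIP1, known both as an Aurora-A interacting protein and as a mitochondrial ribosomal protein, stood at -0.32, -0.41 and -0.19 against 1.03, 1.37 and 1.94, a difference of -1.75 (SE 0.28, adjusted p = 0.0936; -1.51 without library 12). COX7C, a small subunit of cytochrome c oxidase, stood at -0.23, -0.69 and -0.46 against 0.90, 0.95 and 2.45, with library 12 far above the others (difference -1.89, adjusted p = 0.171; -1.38 without it). For these 3 genes, each Tau-S199E library lay above every Tau-K174Q library, and the Tau-WT means (-1.19, -1.08 and -0.82) lay below both constructs. PSMB6, a catalytic beta subunit of the 20S proteasome, followed the same order: its values were -0.26, -0.54 and -0.31 in Tau-K174Q and 1.36, 0.95 and 2.28 in Tau-S199E (difference -1.90, adjusted p = 0.109; -1.53 without library 12).

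NECTIN2, a cell adhesion molecule, had a larger difference without library 12. It stood at -0.35, -0.41 and -0.24 in Tau-K174Q and at 1.90, 1.55 and 0.78 in Tau-S199E, where library 12 was the lowest, and the difference of -1.74 (adjusted p = 0.134) became -2.06 (adjusted p = 0.146) without it. COL8A1, a short-chain collagen, had a difference of -1.59 (adjusted p = 0.0936; -1.40 without library 12), from -0.08, 0.23 and -0.40 against 1.43, 1.19 and 1.90. ZNHIT3, a zinc finger protein of snoRNP assembly, had a difference of -1.47 (-1.07 without library 12). RPS20P14, a pseudogene of the ribosomal protein gene RPS20, had one of -1.87 (-1.49 without library 12), and reads of pseudogene and parent may not be separable. These genes again ran from Tau-WT through Tau-K174Q to Tau-S199E.

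NCBP1, the large subunit of the nuclear cap-binding complex, had another pattern. Tau-K174Q stood at -1.44, -1.33 and -1.51, while Tau-S199E (0.09, 0.92 and -0.52) and Tau-WT (0.32, 0.15 and 0.43) overlapped, so the 3 Tau-K174Q libraries were low on their own. The difference was -1.59 (SE 0.38, adjusted p = 0.195) and -1.93 (adjusted p = 0.148) without library 12. With each library divided by its SD over the genes it was -2.85 (adjusted p = 0.041).

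Of the genes higher in Tau-K174Q, AKR7A2, an aldo-keto reductase that acts on aldehydes such as succinic semialdehyde, had the smallest adjusted p. Its values were 0.50, 0.12 and 0.23 in Tau-K174Q and -1.82, -1.44 and -1.33 in Tau-S199E, a difference of 1.81 (SE 0.30, adjusted p = 0.0936; 1.92, adjusted p = 0.148, without library 12). LITAF, a late endosomal membrane protein, also kept its size (1.53, adjusted p = 0.169; 1.49 without library 12), from -0.02, 0.12 and 0.14 against -1.56, -1.25 and -1.54. RPA2, a subunit of the single-stranded DNA binding protein RPA, stood at 0.20, 0.45 and 0.54 against -1.34, -1.10 and -1.97 (1.86, adjusted p = 0.161; 1.62 without library 12). In these 3 genes Tau-S199E was low, and Tau-K174Q lay between it and the Tau-WT means of 0.86, 0.98 and 0.83.

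MAF1, a repressor of RNA polymerase III, stood at 0.23, 0.39 and 0.44 in Tau-K174Q and -1.26, -1.19 and -1.80 in Tau-S199E (1.77, adjusted p = 0.176; 1.58 without library 12). MARK2, a kinase that phosphorylates tau in its microtubule-binding repeats, stood at -0.46, 0.30 and 0.55 against -1.34, -0.82 and -2.17 (1.57, adjusted p = 0.20; 1.21 without library 12). MEN1, which encodes the scaffold protein menin, stood at 0.22, 0.40 and 0.45 against -0.69, -1.03 and -2.45, a difference of 1.75 (adjusted p = 0.217) that was 1.22 without library 12. HERC5, the ligase of the interferon-induced modifier ISG15, had its highest Tau-S199E value in library 12, and its difference went from 1.12 to 1.38 without it. ATMIN, MRPL12 and AURKB had differences of 1.58, 1.39 and 1.35, and of 1.33, 0.95 and 0.94 without library 12.

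**Figure D2:**
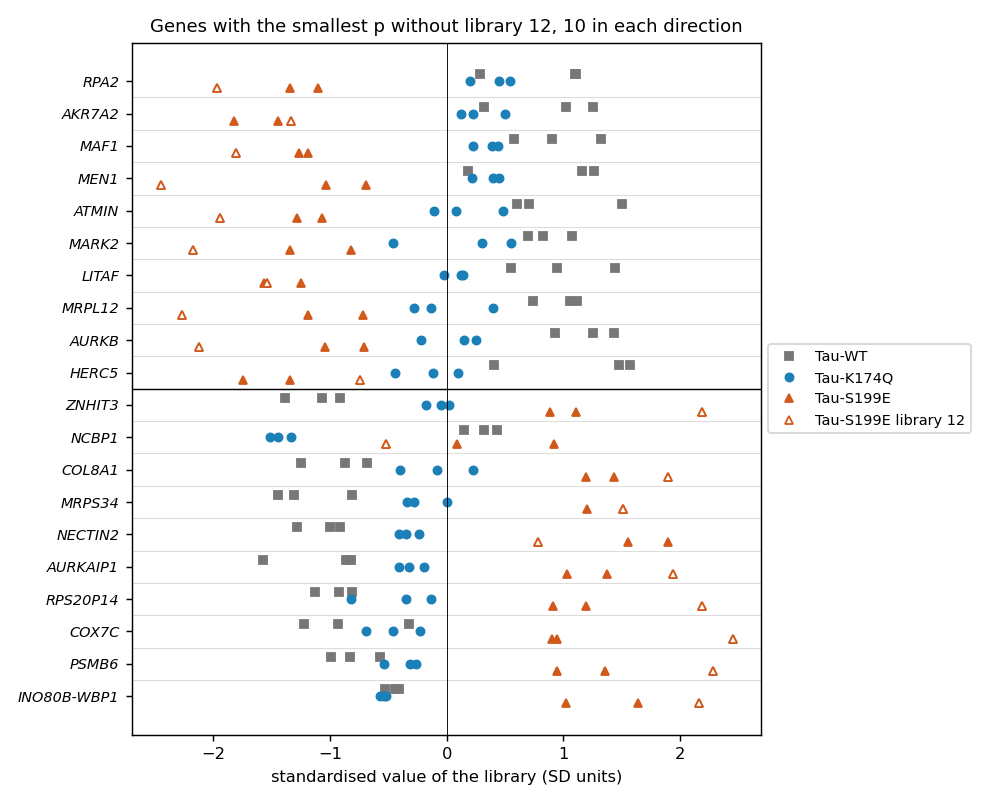
Values by library (x axis, SD units) of the 20 genes with the smallest p without library 12, 10 higher in Tau-K174Q above the line and 10 lower below it, with squares for Tau-WT, circles for Tau-K174Q, triangles for Tau-S199E and open triangles for library 12. Circles and triangles do not overlap in any of the 20 genes, which were picked by p in this same comparison. The circles of NCBP1 alone lie beyond both other constructs.

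The authors had sorted the genes into 4 clusters on these libraries, so the clusters describe the comparison and do not test it. Cluster 1 (535 genes) was low and cluster 4 (533 genes) was high with Tau-S199E relative to Tau-WT, and in both Tau-K174Q took a place between. The mean over cluster 1 was -0.42, -0.18 and 0.05 in libraries 4, 5 and 6, -0.96, -0.68 and -1.69 in libraries 10, 11 and 12 and 0.91, 1.07 and 0.94 in Tau-WT. The mean over cluster 4 was 0.35, 0.20 and -0.05 in Tau-K174Q, 0.74, 0.77 and 1.93 in Tau-S199E and -0.78, -1.14 and -0.87 in Tau-WT. The ranges of the constructs did not overlap in either cluster, where 3 libraries against 3 allow no exact two-sided permutation p below 0.1. All 535 genes of cluster 1 had a higher mean in Tau-K174Q (median difference 0.94; 518 genes and 0.62 without library 12), and all 533 genes of cluster 4 a lower one (median -0.93; -0.53 without library 12). With each library divided by its SD these counts became 510 and 498.

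In clusters 2 and 3 the constructs lay close together, and the order depended on library 12. The mean over cluster 2 (255 genes) was -0.75, -0.64 and -0.47 in Tau-K174Q and -0.59, -0.49 and -1.15 in Tau-S199E. The mean over cluster 3 (353 genes) was 0.92, 0.72 and 0.50 in Tau-K174Q and 0.42, 0.35 and 1.23 in Tau-S199E. Libraries 10 and 11 lay within the range of Tau-K174Q in cluster 2 and nearer to Tau-WT than any Tau-K174Q library in cluster 3, and library 12 lay beyond all Tau-K174Q libraries in both. The median difference was 0.17 in cluster 2 and -0.01 in cluster 3, and without library 12 it was -0.04 and 0.31. With each library divided by its SD the medians were -0.32 and 0.56, so the direction flips under that scaling in cluster 2. In cluster 3, 176 genes were higher and 177 lower in Tau-K174Q as deposited, and 324 higher and 29 lower under that scaling. In cluster 2, 171 genes were higher as deposited. The direction turned without library 12 in 65 genes of cluster 2 and 116 of cluster 3, against 17 in cluster 1 and 40 in cluster 4.

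**Figure D3:**
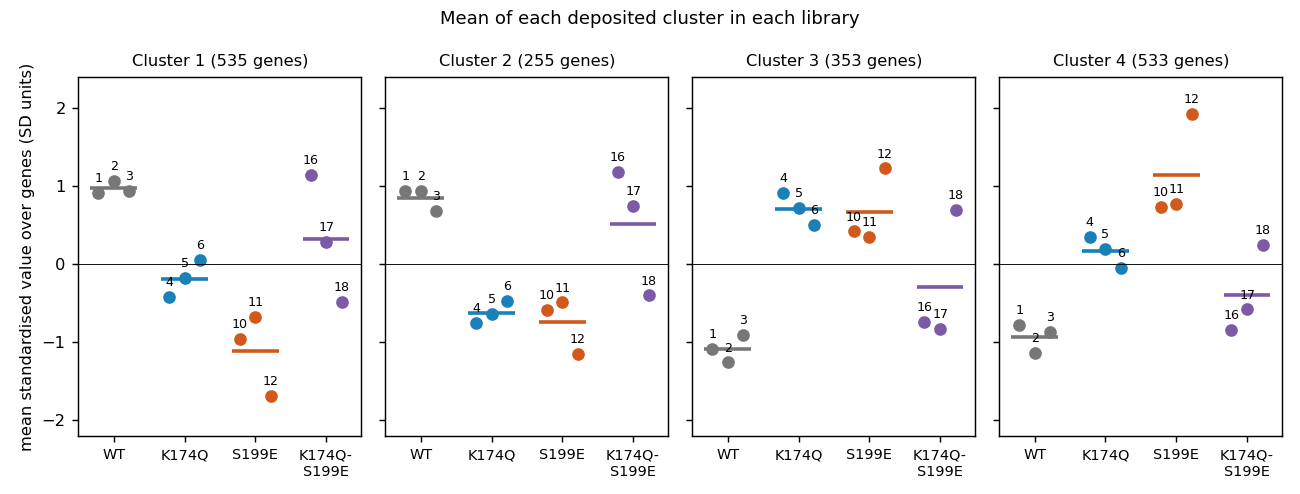
Mean standardised value over the genes of each deposited cluster (y axis, SD units) in each of the 12 libraries (points, numbered by library), by construct (x axis), with bars at the construct means. Tau-K174Q lies between Tau-WT and Tau-S199E in clusters 1 and 4 and overlaps Tau-S199E in clusters 2 and 3. Library 12 lies apart from libraries 10 and 11 in every cluster.

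The distance of each substitution from Tau-WT was then set side by side. Both distances use the same 3 Tau-WT libraries, so they are not independent. In all 1676 genes the deposited fold change also matched the Tau-WT and Tau-S199E means in which of them was higher. It matched the sign of the interaction in all 1676 as well. The genes may therefore have been picked in these same libraries for a large Tau-S199E shift or for the interaction. Picking for a large Tau-S199E shift would by itself favour shares under 100% and Tau-K174Q means in between. Picking for the interaction would by itself favour both substitutions on the same side of Tau-WT. The part of either in the values below was not tested. The Tau-K174Q mean lay between the Tau-WT and Tau-S199E means in 1415 genes (84.4%), beyond Tau-S199E in 260 (15.5%), and on the other side of Tau-WT in 1, INO80B-WBP1. The shift of Tau-K174Q was a median of 65.7% of that of Tau-S199E, and of 78.8% without library 12, when 1195 genes (71.3%) lay between and 479 (28.6%) beyond. By cluster the medians were 55.8%, 89.9%, 99.2% and 55.5% for clusters 1 to 4, and 64.8%, 102.3%, 120.7% and 68.3% without library 12. Clusters 1 and 4 thus stayed below 100% either way, while clusters 2 and 3 passed it without library 12.

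**Figure D4:**
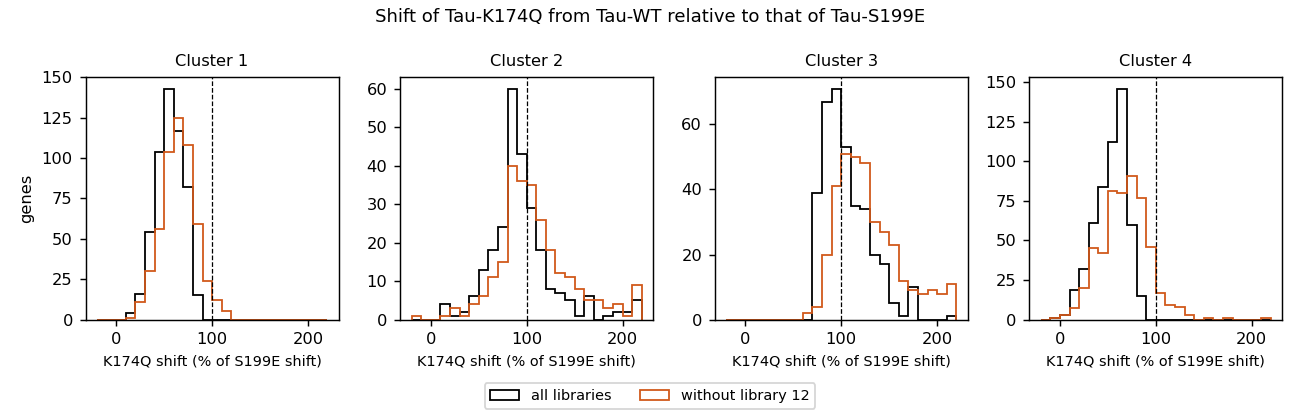
Histograms of the shift of Tau-K174Q from Tau-WT as a percentage of the shift of Tau-S199E (x axis; values outside the axis are drawn at its ends) for the genes of each cluster (y axis, number of genes), with all libraries in black and without library 12 in orange. The dashed line at 100% marks equal shifts, and the medians of clusters 1 and 4 lie below it with and without library 12.

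Of the 260 genes in which Tau-K174Q lay farther from Tau-WT than Tau-S199E did, 176 were higher and 84 lower in Tau-K174Q, and none passed the adjusted test. The 5 of largest difference in each direction among genes with a symbol are named, and 1 gene without a symbol lay above them (1.41). NKRF, a repressor of NF-kappa-B target genes that also acts in ribosomal RNA processing, stood at 1.47, 0.60 and 1.45 in Tau-K174Q, 0.54, 0.07 and -0.20 in Tau-S199E and -1.56, -1.22 and -1.18 in Tau-WT (difference 1.04, SE 0.36, adjusted p = 0.26; 0.87 without library 12). ZZEF1, a zinc finger and EF-hand protein, stood at 1.36, 1.54 and 0.73 against -0.22, 0.52 and 0.24 (1.03, adjusted p = 0.26; 1.06 without library 12). In both genes the constructs did not overlap. PTBP3 (a splicing repressor), SNHG32 and PIP4K2C (a phosphoinositide kinase) had differences of 0.98, 0.95 and 0.93, and of 1.28, 1.03 and 1.07 without library 12.

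On the low side of that set, after NCBP1, stood PSME2, a subunit of the proteasome activator PA28. Its values were -1.65, -0.50 and -1.40 in Tau-K174Q and 0.04, 0.39 and -0.28 in Tau-S199E (difference -1.23, SE 0.64; -1.40 without library 12). ADCY6, an adenylyl cyclase, and APOLD1, an endothelial and immediate early gene, each had a difference of -1.19, and of -1.44 without library 12. BUB1B, a kinase of the spindle checkpoint, had one of -1.12 (-0.98 without library 12).

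The opposite case is a gene in which both substitutions lay apart from Tau-WT and hardly differed from each other. That both did not overlap Tau-WT was common in this table (1298 genes, 77.4%). Among those genes with a symbol, the smallest differences were in CARD8 (an inflammasome sensor), SF3B2 (a U2 snRNP protein), EIF6 (a ribosome anti-association factor), POLR2M and CIAO2A. EIF6 stood at -1.17, -0.80 and -0.09 in Tau-K174Q and -0.91, -0.12 and -1.02 in Tau-S199E, fully overlapping, against 0.89, 1.14 and 0.92 in Tau-WT. The 95% interval of its difference ran from -1.47 to 1.46, that of CARD8 from -1.18 to 1.19, that of SF3B2 from -1.25 to 1.25, that of POLR2M from -1.35 to 1.36 and that of CIAO2A from -1.25 to 1.27. Differences of over 1 SD unit either way are thus inside each interval, and equality is not shown.

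Members of 38 gene lists were read against the shares of the whole table: 52.6% higher, 18.6% higher without overlap and 17.7% lower without overlap. No member of any list passed the adjusted test. The median difference was below 0 in 24 lists and above it in 14, and 12 of the 38 changed sign without library 12.

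**Figure D5:**
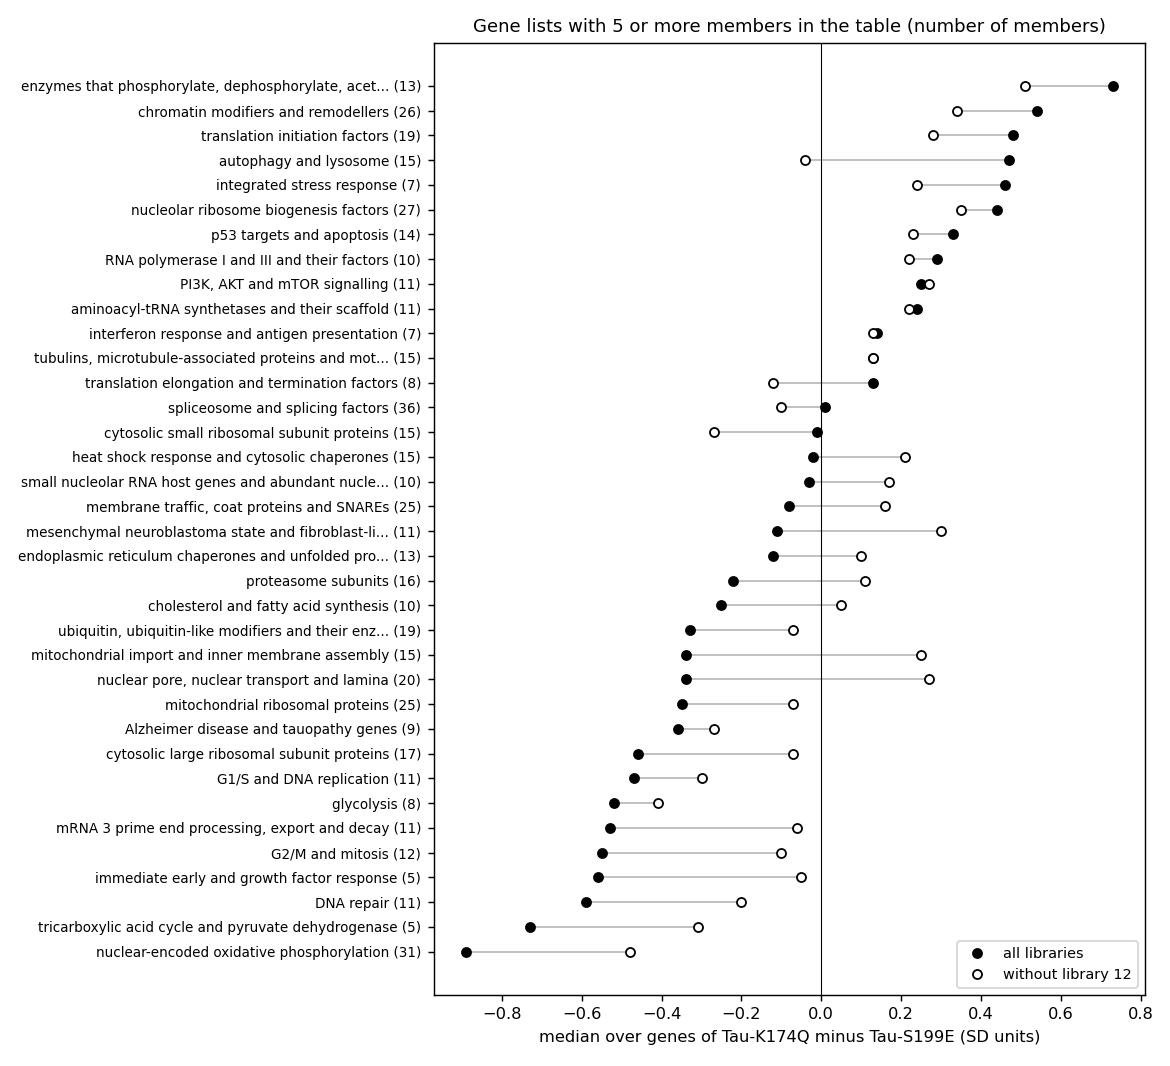
Median over its genes of Tau-K174Q minus Tau-S199E (x axis, SD units) for each gene list with at least 5 members in the table (y axis, number of members in brackets), with all libraries (filled) and without library 12 (open). Nuclear-encoded oxidative phosphorylation lies lowest (-0.89 and -0.48), the enzymes that modify tau lie highest (0.73 and 0.51), and many lists in the middle cross 0.

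Oxidative phosphorylation, in which complexes I to IV pass electrons to oxygen and ATP synthase uses the resulting proton gradient, had the lowest median of the lists with 5 or more members. Of 82 nuclear-encoded genes, 31 were in the table, 8 higher and 23 lower in Tau-K174Q, with a median difference of -0.89 (10 higher, 21 lower and -0.48 without library 12). Before adjustment 1 was higher and 12 lower at p under 0.05 (all genes: 6.68% and 9.37%), and without library 12 these were 0 and 6 (1.97% and 4.95%). The libraries did not overlap in 3 higher and 16 lower members. The mean over the 31 genes was 0.14, 0.04 and -0.06 in Tau-K174Q, 0.50, 0.44 and 1.27 in Tau-S199E and -0.38, -0.97 and -0.71 in Tau-WT. Every Tau-K174Q library lay between the libraries of Tau-WT and those of Tau-S199E, and the sign of the median held under both library scalings (-0.67 and -0.63).

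The lower members lay mostly outside complex I, a division made after the values were seen. The 14 genes of complexes II, III and IV and ATP synthase were all lower in Tau-K174Q (median -1.21), 10 of them without overlap, and 13 were lower without library 12 (median -0.83). With each library divided by its SD, 13 of the 14 were lower. The 5 complex IV genes had a mean of 0.01, -0.11 and -0.31 in Tau-K174Q and 1.07, 0.87 and 1.87 in Tau-S199E. All 5 were lower without overlap (all genes: 17.7%). Their median was -1.38 with and without library 12, but of these genes only COX7A2 kept its size. Without library 12, COX7C went from -1.89 to -1.38, COX7B from -1.19 to -0.82 and COX6C from -0.78 to -0.48, and COX5B shrank as well. These 5 were taken by symbol and leave out NDUFA4, now assigned to this complex. The difference of NDUFA4 shrank from -0.78 to -0.35 without library 12. COX7A2 stood at -0.33, -0.12 and -0.06 against 1.30, 1.13 and 1.2 (difference -1.38 with and without library 12, adjusted p = 0.26), with library 12 inside the range of its group. COX5B had a difference of -1.77 (adjusted p = 0.218; -1.46 without library 12). In complex III, CYC1, the heme protein cytochrome c1, had one of -1.64 (adjusted p = 0.238; -1.31 without library 12).

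Complex I, the NADH dehydrogenase, was divided: of 17 members by symbol, 8 were higher and 9 lower (median -0.35; 0.00 without library 12). NDUFA4, counted here by its symbol, is now assigned to complex IV, and its difference was -0.78 (-0.35 without library 12). NDUFA3, an accessory subunit, stood at -0.70, -0.16 and -0.81 in Tau-K174Q and 1.08, 1.46 and 2.0 in Tau-S199E (-2.07, adjusted p = 0.111; -1.83 without library 12). NDUFA11, another accessory subunit, had the other sign, with 1.18 (0.85 without library 12). Subunits of this 1 complex were therefore found in both directions.

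Transcripts encoded by mitochondrial DNA were few in the table, 3 of 15. MT-CO3 and MT-CO2, both core subunits of complex IV, were lower in Tau-K174Q without overlap. MT-CO3 stood at -0.08, -0.36 and -0.41 in Tau-K174Q and 1.04, 1.48 and 1.56 in Tau-S199E (-1.64, SE 0.48, adjusted p = 0.238; -1.54 without library 12), and MT-CO2 had a difference of -1.10 (-1.05 without library 12). MT-ND5, of complex I, was higher without overlap, with a difference of 0.83 (0.59 without library 12). Whether nuclear copies of mitochondrial DNA shared reads with these genes was not tested.

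The machinery that makes and imports mitochondrial proteins showed no common direction. Of 82 mitochondrial ribosomal proteins, 25 were in the table, 10 higher and 15 lower (median -0.35; -0.07 without library 12), with 4 higher and 6 lower without overlap. Of 49 import and inner membrane assembly genes, 15 were in the table, 6 higher and 9 lower, and the median of -0.34 became 0.25 without library 12 and 0.20 with libraries divided by their SD. OXA1L, the insertase of the inner membrane, stood at 0.34, -0.13 and -0.84 against 1.62, 1.17 and 1.30 (-1.57, adjusted p = 0.147; -1.60 without library 12), whereas CHCHD2, an intermembrane space protein, had a difference of 1.55 (1.15 without library 12).

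Among enzymes of glucose breakdown, 8 of 22 glycolysis genes were in the table, 3 higher and 5 lower (median -0.52; -0.41 without library 12). PGAM1, phosphoglycerate mutase, had a difference of -1.58 (-1.14 without library 12) and PFKM, phosphofructokinase, one of -1.10 (-0.73), while GPI, glucose-6-phosphate isomerase, had one of 1.32 (0.97). Of 24 genes of the tricarboxylic acid cycle and pyruvate dehydrogenase, 5 were in the table, 1 higher and 4 lower (median -0.73; -0.31 without library 12). Of 37 genes of cholesterol and fatty acid synthesis, 10 were in the table, 4 higher and 6 lower, and the median of -0.25 was 0.05 without library 12 and 0.24 with libraries divided by their SD.

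Ribosomes are assembled in the nucleolus from ribosomal RNA and proteins, and the study's title names protein synthesis. Of 51 cytosolic large subunit proteins, 17 were in the table, 6 higher and 11 lower (median -0.46; -0.07 without library 12 and 0.04 with libraries divided by their SD). Of 34 small subunit proteins, 15 were in the table, 7 higher and 8 lower (median -0.01; -0.27 without library 12 and 0.20 with libraries centred). The members with the smallest p had opposite signs: RPLP0 of the ribosomal stalk stood at -0.15, 0.38 and 0.53 in Tau-K174Q and -1.31, -0.93 and -1.49 in Tau-S199E (1.49, adjusted p = 0.229; 1.37 without library 12), RPL3 had a difference of 1.44 (1.03 without it), and RPS2 one of -1.44 (-0.77 without it). Ribosomal protein genes have many near-identical pseudogenes, and how shared reads were counted is not given in the sources used here.

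Nucleolar ribosome biogenesis factors had a median of the other sign. Of 118 listed, 27 were in the table, 20 higher and 7 lower in Tau-K174Q (all genes: 52.6% higher). The median difference was 0.44 (19 higher, 8 lower and 0.35 without library 12). Without overlap, 6 were higher and 2 lower (all genes: 18.6% and 17.7%). Before adjustment 1 was higher and 0 lower at p under 0.05 (all genes: 6.68% and 9.37%), and without library 12 these were 0 and 0. Dividing libraries by their SD left 16 higher and 11 lower (median 0.42; all genes: 55.2% higher). WDR18, of the rixosome complex that matures the large subunit, stood at 0.06, 0.00 and 0.45 in Tau-K174Q and -1.52, -0.25 and -2.10 in Tau-S199E (1.46, adjusted p = 0.26; 1.05 without library 12). NOLC1, a nucleolar phosphoprotein of snoRNP traffic, stood at -0.18, 0.03 and -0.21 against -0.82, -1.09 and -1.77 (1.11, adjusted p = 0.314; 0.84 without library 12), and NCL, nucleolin, at -0.20, -0.05 and 0.02 against -0.27, -0.91 and -1.99 (0.98; 0.52 without library 12). In these 3 genes Tau-S199E lay below Tau-K174Q and Tau-WT, and its libraries were more widely spread than those of Tau-K174Q.

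RNA polymerase I and III genes (10 of 45 in the table) were higher in 6 and lower in 4 (median 0.29; 0.22 without library 12). Translation initiation factors (19 of 58) were higher in 11 and lower in 8 (median 0.48; 0.28 without library 12), with EIF4E2, a cap-binding protein, at 1.27 (0.85) and EIF3D, of the eIF3 complex, at 1.18 (0.89). Elongation and termination factors (8 of 29) had a median of 0.13, which was -0.12 without library 12 and -0.23 with libraries divided by their SD. Their member EEF1B2, the exchange factor of eEF1A, had a difference of -1.66 (adjusted p = 0.20; -1.21 without library 12). Aminoacyl-tRNA synthetases and their scaffold (11 of 40) had 7 higher and 4 lower (median 0.24; 0.22 without library 12), and here the scaffold AIMP2 had a difference of -1.52 (-1.09 without library 12) and the histidine enzyme HARS1 one of -1.55 (-0.81 without it).

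In RNA processing, 36 of 121 splicing genes were in the table, 19 higher and 17 lower, with a median of 0.01 that was -0.10 without library 12 and -0.10 with libraries divided by their SD. Core snRNP proteins stood on both sides: SNRPA, of the U1 snRNP, had a difference of 1.50 (1.2 without library 12), and SNRNP70, of the same particle, one of -1.35 (-0.96). Genes of mRNA 3′ end processing, export and decay (11 of 60) had 4 higher and 7 lower (median -0.53; -0.06 without library 12). NXF1, the main mRNA export receptor, stood at -0.11, -0.48 and -0.53 in Tau-K174Q and 0.96, 0.79 and 2.61 in Tau-S199E (-1.83, adjusted p = 0.199; -1.26 without library 12). Host genes of small nucleolar RNAs (10 of 37) had 5 higher and 5 lower, and the median of -0.03 became positive without library 12 (0.17) and under both library scalings (0.18 and 0.24).

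Protein quality control lists had medians near 0 or unstable ones. Heat shock and cytosolic chaperone genes (15 of 51) had a median of -0.02 (0.21 without library 12; 0.20 and 0.32 under the scalings), with HSPD1, the mitochondrial chaperonin, at 1.31 (0.99 without library 12) and CCT5, of the cytosolic chaperonin, at -1.40 (-0.97). Endoplasmic reticulum chaperone and unfolded protein response genes (13 of 45) had -0.12 (0.10 without library 12; 0.09 and 0.41 under the scalings), with HSPA5, the main chaperone there, at 1.15 (0.61 without library 12). Integrated stress response genes (7 of 31) had 5 higher and 2 lower (0.46; 0.24 without library 12). Proteasome subunits (16 of 49) had 5 higher and 11 lower, with a median of -0.22 that was 0.11 without library 12 and 0.26 with libraries divided by their SD. Ubiquitin pathway genes (19 of 72) had -0.33 (-0.07 without library 12 and 0.09 with libraries divided by their SD). Autophagy and lysosome genes (15 of 78) had 0.47 and, without library 12, -0.04, with TFE3, a transcription factor of lysosomal genes, at 1.43 (0.97 without library 12) and ATP6V1E1, of the proton pump, at -1.39 (-0.98).

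Tau acts on microtubules, and 15 of 86 genes of tubulins, microtubule-associated proteins and motors were in the table, 8 higher and 7 lower (median 0.13 with and without library 12). Both alpha-tubulins of the table were lower in Tau-K174Q. TUBA1A stood at 0.29, 0.18 and -0.47 in Tau-K174Q and 0.63, 0.86 and 2.49 in Tau-S199E (-1.32, adjusted p = 0.265; -0.74 without library 12), and TUBA1B had a difference of -1.47 (-1.01 without it). These genes are near-identical in their coding parts, so their values may not be independent. DPYSL3, a collapsin response mediator, stood at 0.02, -0.10 and -0.42 against 1.26, 1.11 and 1.59 (-1.49, adjusted p = 0.26; -1.35 without library 12). The tubulin-folding cofactor TBCC (1.56) and DCTN1 of the dynein activator dynactin (1.25) had the other sign, with 1.40 and 0.80 without library 12.

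The list of enzymes that phosphorylate, dephosphorylate, acetylate or deacetylate tau had the highest median of the lists. It is broader than its name, so its counts and median are not those of such enzymes alone. Its members include OGT, a glycosyltransferase (-0.38), ANP32A, a phosphatase inhibitor (-0.54), SIRT5, mainly a desuccinylase (-0.08), and PPME1, a methylesterase (0.73). Of 75 listed, 13 were in the table, 8 higher and 5 lower in Tau-K174Q, with a median of 0.73 (9 higher, 4 lower and 0.51 without library 12), and 7 were higher and 2 lower without overlap. The sign held under both library scalings (0.94 and 0.43). Besides MARK2, GSK3A, a glycogen synthase kinase, stood at -0.46, 0.18 and 0.52 in Tau-K174Q and -0.58, -0.95 and -2.16 in Tau-S199E (1.31, adjusted p = 0.298; 0.84 without library 12). PRKACA, the catalytic subunit of protein kinase A, stood at -0.22, 0.31 and -0.04 against -1.34, -0.38 and -1.99 (1.26; 0.88 without library 12). Among phosphatases, PPP1CA had a difference of 1.16 and its paralog PPP1CC one of -1.12 (0.74 and -0.64 without library 12), and PPP2R1A, the scaffold of phosphatase 2A, one of -0.88 (-0.77). The 4 kinases of the list in the table, a division made after the values were seen, were all higher (all genes: 52.6%), and none passed the adjusted test. CSNK1A1, a casein kinase also named after its value was seen, was higher by the least (0.47; 0.15 without library 12). The phosphatase genes were found in both directions.

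The genes of the proteins named in the study's title, and tau itself, did not pass the test. CREBBP, which encodes CBP, stood at -0.26, 0.06 and -0.31 in Tau-K174Q, -0.99, -0.41 and -2.14 in Tau-S199E and 0.84, 1.16 and 0.77 in Tau-WT. Its difference was 1.01 (SE 0.55, adjusted p = 0.366), and 0.53 without library 12. SIRT6 and EP300, the paralog of CREBBP, were not among the 1676 genes. MAPT stood at -0.49, -0.51 and -0.57 in Tau-K174Q and -0.15, -0.38 and -1.44 in Tau-S199E, overlapping, and at 0.00, 0.85 and 0.11 in Tau-WT. Its difference was 0.13 (SE 0.73, adjusted p = 0.922), with a 95% interval from -1.54 to 1.81, and -0.26 without library 12. Whether reads of the transfected constructs are counted in MAPT is not given in the sources used here, so its values do not check the labels. AKT1, a kinase of growth signalling, stood at 0.59, 0.83 and 0.93 in Tau-K174Q, 0.90, 0.68 and 0.58 in Tau-S199E and -2.0, -1.35 and -0.99 in Tau-WT. Both substitutions were thus above Tau-WT and overlapped each other (difference 0.06, 95% interval from -0.70 to 0.83). Separation of both from Tau-WT was found in 77.4% of all genes.

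Of 32 genes linked to Alzheimer disease and tauopathy, 9 were in the table, 4 higher and 5 lower (median -0.36; -0.27 without library 12). PLCG2, a phospholipase known from microglia, stood at -0.40, 0.12 and -0.42 in Tau-K174Q and 1.36, 1.66 and 1.37 in Tau-S199E, with library 12 close to the others (-1.70, SE 0.31, adjusted p = 0.13; -1.75 without it). PI3K, AKT and mTOR signalling genes (11 of 56) had 7 higher and 4 lower (median 0.25; 0.27 without library 12).

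In the nucleus, chromatin modifiers and remodellers (26 of 123 in the table) had 16 higher and 10 lower, a median of 0.54 (0.34 without library 12), and 8 higher and 3 lower without overlap. RBBP4, a histone chaperone of several complexes, had a difference of 1.35 (0.88 without library 12) and CHD8, a remodeller, one of -1.43 (-0.85). Nuclear pore, transport and lamina genes (20 of 73) had 9 higher and 11 lower, and the median of -0.34 became 0.27 without library 12 and 0.12 with libraries divided by their SD. EMD, the inner nuclear membrane protein emerin, stood at -0.44, -0.18 and -0.44 in Tau-K174Q and 1.0, 1.35 and 2.14 in Tau-S199E (-1.85, adjusted p = 0.169; -1.53 without library 12). SUN2, which links lamina and cytoskeleton, had a difference of -1.50 (-1.40 without library 12), while BANF1, which binds emerin and DNA, had one of 1.2 (1.10).

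Cell cycle and repair genes had negative medians that shrank without library 12. They were -0.47 for G1/S and replication (11 of 63 in the table; -0.30 without library 12), -0.55 for G2/M and mitosis (12 of 87; -0.10) and -0.59 for DNA repair (11 of 74; -0.20), with 8, 9 and 7 members lower. DDB1, of a repair ubiquitin ligase, had a difference of -1.67 (adjusted p = 0.253), but its Tau-S199E values of 0.51, 0.86 and 2.77 were led by library 12 (-0.98 without it). RPA3 had one of -1.58 (-1.16 without library 12), opposite in sign to its partner RPA2. Genes of p53 and apoptosis (14 of 63) had 9 higher and 5 lower (median 0.33; 0.23 without library 12).

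Membrane traffic genes (25 of 168) had 12 higher and 13 lower, with a median of -0.08 that was 0.16 without library 12 and 0.14 and 0.30 under the scalings. RAB2A, a GTPase of endoplasmic reticulum to Golgi traffic, stood at 0.14, -0.64 and -0.33 in Tau-K174Q and 0.93, 1.86 and 1.76 in Tau-S199E (-1.79, adjusted p = 0.147; -1.67 without library 12). Immediate early genes (5 of 42) had 1 higher and 4 lower (median -0.56; -0.05 without library 12), and interferon and antigen presentation genes (7 of 56) had 5 higher and 2 lower (median 0.14; 0.13), among them HLA-B at -1.14 (-1.08).

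Neuroblastoma lines hold adrenergic and mesenchymal states, and both marker lists were looked up. Of 50 adrenergic and neuronal markers, 1 was in the table: GAL, the neuropeptide galanin, stood at 0.62, 0.46 and 0.23 in Tau-K174Q and 0.68, 0.92 and 1.31 in Tau-S199E (-0.53; -0.36 without library 12). Of 52 mesenchymal markers, 11 were in the table, 5 higher and 6 lower. Their mean was 0.23, 0.36 and 0.20 in Tau-K174Q, 0.08, 0.24 and 0.87 in Tau-S199E and -0.47, -0.59 and -0.43 in Tau-WT. Library 11 thus lay within the range of Tau-K174Q, library 10 below it and library 12 above it. The median of -0.11 became 0.30 without library 12, and 0.10 and 0.31 under the scalings. Whether the labelled cell type shows its defining markers cannot be checked on values without levels, and the part of these markers in the other differences was not tested.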

How the data were processed

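RNA was measured with a 3′ mRNA kit in 12 libraries, per the labels' protocols. Tools named without role or order in the submitters' processing notes are STAR 2.5.3a, RSEM 1.2.31 and DESeq2, with the build GRCh38. Each deposited library column is a score, since the authors scaled every gene across the 12 libraries (largest absolute gene mean 5.7e-15). The deposited fold change is on the log2 scale and the deposited adjusted p-value is without a named contrast, per the file headers. Depth is unknown, so no floor or counting interval is given, and a pseudocount, a low-value filter or a count test could not be applied. A cluster number is also deposited.

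Groups come from the column names and the labels. The scores went unaltered into limma 3.58.1 under R 4.3.3, with 1 mean per construct, all 12 libraries, the ordinary residual variance of each gene (8 degrees of freedom), two-sided tests and Benjamini-Hochberg adjustment over 1676 genes at 0.05. The fit was tested on simulated data. Symbols were matched for 1659 genes, and positions come from GENCODE 29.

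Members and lists were chosen with earlier results of these data known. Genes named are the largest differences past the threshold, 10 in each direction of smallest p without library 12, up to 4 of smallest p in each list, 5 in each direction lying beyond Tau-S199E, the 5 smallest differences where both substitutions do not overlap Tau-WT, and 5 genes of the study's subject. Genes singled out beyond that rule, chosen after their values were seen, are COX7A2, COX7B, COX6C, NDUFA4, NDUFA11, TUBA1B, CSNK1A1, PPP1CA and PPP2R1A. OGT, ANP32A, SIRT5 and PPME1 were also named beyond it. Alternatives were leaving out each library, moderated variances, the 6 libraries only, ranks, medians, and libraries centred on their median or divided by their SD.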

Additional observations from a re-analysis of the deposited data

How the results depend on the processing

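The number of genes past the threshold, 1 with all libraries, was 0 under moderated variances (353 with an unadjusted p under 0.05), 0 on the 6 libraries alone (301), 0 on ranks (330) and 0 under moderated variances without library 12, an alternative chosen after seeing the data (95). It was 7 with each library divided by its SD, 1 with each library centred on its median, and 0 to 1 when each library was left out. All calls were lower in Tau-K174Q. The 7 were INO80B-WBP1, PSMB6, AURKAIP1, ZNHIT3, NCBP1, COX7C and NXF1, with adjusted p of 0.00602, 0.00723, 0.0218, 0.0346, 0.041, 0.0218 and 0.0346. INO80B-WBP1 itself had an adjusted p of 0.144 under moderated variances and 0.201 on the 6 libraries. The cause was not tested.

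The share of genes higher in Tau-K174Q (52.6%) was 55.8% from medians over libraries, 59.5% with centred libraries, 55.2% with scaled libraries and 50.7% to 57.4% when each library was left out. Of 172 named genes, 163 kept the sign of their difference in all alternatives run and 9 did not. With scaled libraries MSMO1 was 0.15, DUSP2 0.26, SF3B2 -0.51 and MAPT -0.42, and with centred libraries EIF6 was 0.21. When each library was left out, MSMO1 ranged from -0.63 to 0.02, CARD8 from -0.39 to 0.35, SF3B2 from -0.23 to 0.29, EIF6 from -0.30 to 0.28, POLR2M from -0.28 to 0.41, CIAO2A from -0.23 to 0.15, MAPT from -0.26 to 0.39 and AKT1 from -0.01 to 0.16.

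Without library 12, 13 list medians moved by less than the spread between libraries. The others were -0.07 for large ribosomal subunit proteins, -0.27 for small ones, -0.07 for mitochondrial ribosomal proteins, 0.35 for nucleolar factors, 0.28 for initiation, -0.12 for elongation, -0.48 for oxidative phosphorylation, 0.25 for mitochondrial import and -0.31 for the tricarboxylic acid cycle. They were 0.21 for heat shock, 0.24 for the integrated stress response, 0.11 for the proteasome, -0.07 for ubiquitin, -0.04 for autophagy, -0.06 for mRNA 3′ processing, -0.30 for G1/S, -0.10 for G2/M and -0.20 for DNA repair. They were 0.51 for enzymes that modify tau, -0.27 for Alzheimer genes, 0.34 for chromatin, -0.05 for immediate early genes, 0.30 for mesenchymal markers, 0.16 for membrane traffic and 0.27 for the nuclear pore.

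The library scalings of the list medians were chosen after seeing the data. With centred libraries, which add the same amount to every gene, the medians that moved by more than the spread or changed sign were 0.20 for small ribosomal subunit proteins, 0.66 for nucleolar factors, 0.51 for RNA polymerase I and III, 0.69 for initiation, 0.34 for elongation, 0.45 for tRNA synthetases, -0.89 for mitochondrially encoded transcripts, -0.13 for import and 0.20 for heat shock. They were 0.09 for the endoplasmic reticulum, 0.67 for the integrated stress response, -0.01 for the proteasome, -0.12 for ubiquitin, 0.69 for autophagy, 0.22 for splicing, 0.18 for small nucleolar RNA hosts, -0.26 for G1/S, -0.38 for DNA repair and 0.54 for p53. They were 0.34 for tubulins and motors, 0.94 for enzymes that modify tau, -0.15 for Alzheimer genes, 0.46 for PI3K, AKT and mTOR, 0.75 for chromatin, 0.35 for interferon, 0.10 for mesenchymal markers and 0.14 for membrane traffic.

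With libraries divided by their SD those medians were 0.04 for large ribosomal subunit proteins, -0.26 for small ones, -0.05 for mitochondrial ribosomal proteins, 0.25 for initiation, -0.23 for elongation, 0.20 for import, -0.36 for the tricarboxylic acid cycle, 0.24 for cholesterol and fatty acids and 0.32 for heat shock. They were 0.41 for the endoplasmic reticulum, 0.04 for the integrated stress response, 0.26 for the proteasome, 0.09 for ubiquitin, 0.04 for autophagy, -0.10 for splicing, 0.24 for small nucleolar RNA hosts, -0.30 for G1/S, -0.24 for G2/M and -0.29 for DNA repair. They were 0.42 for tubulins and motors, 0.43 for enzymes that modify tau, -0.24 for Alzheimer genes, 0.27 for chromatin, -0.21 for the adrenergic marker, 0.31 for mesenchymal markers, 0.30 for membrane traffic and 0.12 for the nuclear pore.

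No paired analysis was possible because the columns carry library numbers and not the replicate numbers of the labels. Depth and level are not in the values, so what they limit cannot be stated by gene.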

Other observations

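The table held 46 pseudogenes, many of them of ribosomal protein genes, and 27 of these were lower and 19 higher in Tau-K174Q, with a median difference of -0.63 (-0.31 without library 12). The constructs' libraries did not overlap in 17 of the lower and 7 of the higher ones (all genes: 17.7% lower and 18.6% higher). The 45 other non-coding genes, among them snoRNA hosts and antisense transcripts, were higher in 30 and lower in 15, with a median of 0.42 (28 higher, 17 lower and 0.22 without library 12). With libraries divided by their SD, 24 of these were higher and 21 lower (all genes: 55.2% higher). For comparison, the 1585 protein-coding genes had a median of 0.08 (833 higher, 752 lower). Without library 12 their median was 0.15 (914 higher, 671 lower). Reads of pseudogenes and parents, or of antisense pairs, may not be separable in the authors' counting, and this was not tested.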
